A study of Mus musculus with 53 samples.

Results

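Proliferation genes were followed across the lungs of mice that breathed cigarette smoke, stopped breathing it or never did. The set held 44 listed genes of the cell cycle and of DNA replication, 29 of them acting in mitosis and its preparation and 15 in S phase. Each gene was read from its brightest probe set that carried its symbol alone, and 39 of the 44 could be tested among 15030 genes in all. Small lobes of the lung of female C57BL/6 mice were measured on Affymetrix Mouse 430 2.0 arrays, with 1 mouse on each of 53 arrays. Smoke mice breathed 4% mainstream cigarette smoke through the nose, in daily sessions of 2 hours on 5 days of the week, and were taken after 2 weeks (6 mice), 12 weeks (5 mice) or 24 weeks (6 mice). Forced air mice (6 at each of these times) went through the sham procedure with air. Cessation mice had smoke for 12 weeks, then forced air (6 mice) or room air (6 mice) for another 12 weeks, and were taken at 24 weeks. Under the treatment protocol every cessation mouse had sham exposure once smoke had ended, although the labels name room air for 1 of these groups, and the labels were followed. The remaining 6 mice were untreated, with a time of 0. The labels name no genetic change in any group and no mouse age, and none of the samples used here is an untreated mouse at 24 weeks.

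A dividing cell copies its DNA in S phase and parts the copies in mitosis. Entry into S phase follows the release of E2F factors from RB proteins by cyclin-dependent kinases, and E2F then drives genes for the replicative helicase, the sliding clamp and nucleotide synthesis. Genes for mitosis are held down in resting cells by the DREAM complex and are switched on later, with B-MYB and FOXM1, through promoter elements named CHR and CCAAT. Few cells divide in the resting adult lung, and macrophages, epithelial cells and endothelial cells can all re-enter the cycle after injury. In a whole lobe a change in the number of dividing cells and a change in the RNA of each cell cannot be told apart.

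Of the listed genes 5 gave no test, all of the mitotic class. The probe set of Ccnb1, the B cyclin that partners Cdk1, carried several gene symbols and was given no value. Plk1, Ndc80, Melk and Foxm1 lay under the detection filter, which kept probe sets with detection p-values under 0.05 for 50% or more of the arrays in 1 group or more. The mitotic kinase gene Plk1 was detected on 1 of 6 smoke arrays and on 0 of 6 forced air arrays at 2 weeks, with signals of 7.75, 12.2 and 17.6 (lowest, median and highest of a group, as below) in smoke mice and 1.23, 7.41 and 10.8 in forced air mice. Ndc80, Melk and Foxm1 were detected on 0 of 53 arrays. The signal of the transcription factor gene Foxm1 was 12.7, 13.8 and 16.2 in smoke mice at 24 weeks, against 7.91, 13.4 and 18.1 in forced air mice, which overlapped. With no filter, 2 of these 4 genes were called with smoke in limma's test. Melk was higher by 0.40, 0.40 and 0.36 at 2, 12 and 24 weeks (adjusted p = 0.0124, 0.00742 and 0.0151), and Ndc80 by 0.60 and 0.59 at 2 and 12 weeks (adjusted p = 0.00688 and 0.00416). All 15 S phase members were tested. Cenpe passed the filter only through smoke mice, and Ccne1 only through groups that had breathed smoke, so counts without both are given beside the main counts.

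The promoters of the mitotic and S phase members were compared first, on their letters and without any array value. RefSeq windows of 300 bases (250 before to 50 after the start site, assembly GRCm38.p6) were at hand for 24 mitotic and 13 S phase members. Ccna2, Aurkb, Kif20a, Tpx2, Foxm1, Mcm4 and Ccne2 had none. The letters searched on both strands were TTTGAA (CHR) and CCAAT (the CCAAT box). For E2F factors 4 cores were searched, TTGGCGC with the close forms TTCCCGC, also TTCGCGC, and also TTGCCGC. CHR letters lay in 17 of 24 mitotic windows (70.8%) and in 1 of 13 S phase windows (7.69%), that of Mcm2, beside 18.1% of the windows of 27025 genes (the first window listed for each). CCAAT lay in 18 mitotic (75%) and 8 S phase windows (61.5%), beside 37.9% of all. E2F cores lay in 3 mitotic (12.5%) and 7 S phase windows (53.8%), beside 9.69% of all. CHR and CCAAT together lay in 15 mitotic windows (62.5%) and in 1 S phase window, beside 7.12% of all. Matches of different motifs overlapped in 2 places. A match is a run of letters and not a shown binding site.

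**Figure D1:**
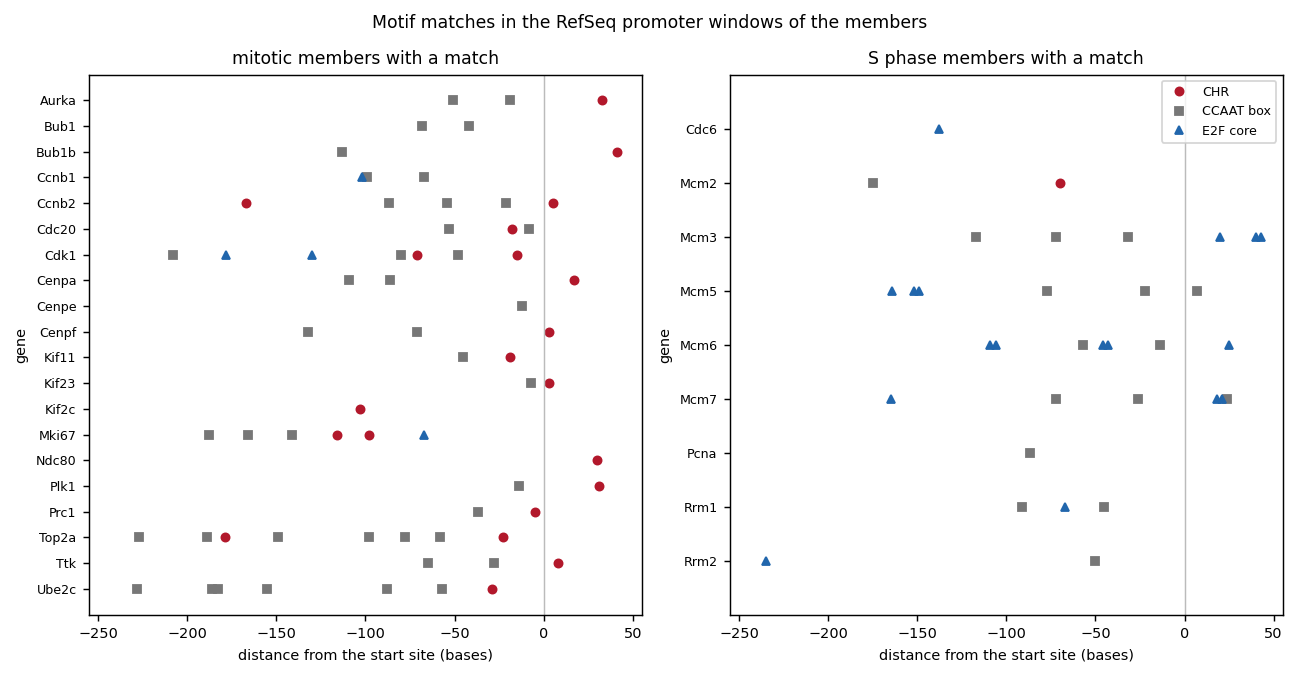
Matches to 3 motifs in the RefSeq promoter windows of mitotic members (left) and S phase members (right), by distance of their first base from the start site in bases. Circles are CHR letters, squares CCAAT boxes and triangles E2F cores; genes without a match are not drawn. CHR letters lie mostly in mitotic windows, in 17 of 24, and E2F cores in 7 of 13 S phase windows.

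The windows of 5 members are printed to show these letters in genes whose signals are described next. Capitals mark the motif letters on either strand, and each window runs 5′ to 3′ along the gene. Mki67 (Entrez gene 17345, minus strand, chr7:135716330-135716629), Cdk1 (Entrez gene 12534, minus strand, chr10:69352863-69353162) and Ccnb2 (Entrez gene 12442, minus strand, chr9:70421505-70421804) are mitotic members. Mcm5 (Entrez gene 17218, plus strand, chr8:75109259-75109558) and Rrm2 (Entrez gene 20135, plus strand, chr12:24708004-24708303) are S phase members.
Mki67: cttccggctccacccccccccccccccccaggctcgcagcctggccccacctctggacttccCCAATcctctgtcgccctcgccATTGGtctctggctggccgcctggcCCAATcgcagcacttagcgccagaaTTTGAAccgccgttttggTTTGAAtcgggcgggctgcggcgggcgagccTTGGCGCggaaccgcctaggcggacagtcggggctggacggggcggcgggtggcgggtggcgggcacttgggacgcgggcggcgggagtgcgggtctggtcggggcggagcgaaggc
Cdk1: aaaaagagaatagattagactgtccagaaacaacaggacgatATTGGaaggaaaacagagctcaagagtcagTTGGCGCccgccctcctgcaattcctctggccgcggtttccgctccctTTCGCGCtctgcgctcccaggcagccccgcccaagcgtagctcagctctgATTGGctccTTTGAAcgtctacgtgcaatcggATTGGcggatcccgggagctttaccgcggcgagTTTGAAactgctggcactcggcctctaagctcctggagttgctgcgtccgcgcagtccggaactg
Ccnb2: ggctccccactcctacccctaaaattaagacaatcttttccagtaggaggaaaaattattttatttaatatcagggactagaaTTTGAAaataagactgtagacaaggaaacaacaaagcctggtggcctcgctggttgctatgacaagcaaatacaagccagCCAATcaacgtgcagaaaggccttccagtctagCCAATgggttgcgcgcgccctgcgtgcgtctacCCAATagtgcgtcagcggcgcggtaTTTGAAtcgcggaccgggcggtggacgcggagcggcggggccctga
Mcm5: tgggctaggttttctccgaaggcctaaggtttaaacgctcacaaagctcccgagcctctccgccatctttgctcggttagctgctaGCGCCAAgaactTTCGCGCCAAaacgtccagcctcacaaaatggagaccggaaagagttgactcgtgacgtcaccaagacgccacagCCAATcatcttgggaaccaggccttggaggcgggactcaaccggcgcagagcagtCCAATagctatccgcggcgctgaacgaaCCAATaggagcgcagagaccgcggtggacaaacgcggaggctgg
Rrm2: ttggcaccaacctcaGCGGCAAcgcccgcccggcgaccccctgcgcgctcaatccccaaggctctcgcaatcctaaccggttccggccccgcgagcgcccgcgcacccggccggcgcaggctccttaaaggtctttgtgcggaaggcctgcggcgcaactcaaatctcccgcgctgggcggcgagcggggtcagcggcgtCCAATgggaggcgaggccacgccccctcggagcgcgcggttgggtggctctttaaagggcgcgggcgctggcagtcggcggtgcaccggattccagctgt
Mki67 and Cdk1 hold CHR, CCAAT and E2F letters together, and Ccnb2 holds CHR and CCAAT. Mcm5 and Rrm2 hold E2F and CCAAT letters and no CHR.

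The arrays were alike in detection, with 67.5% to 76.2% of 45101 probe sets called present. The Gapdh control probe sets gave lower 3′/5′ ratios, which rise as RNA degrades, in smoke mice at the early times. Medians at 2 weeks were 1.62 in smoke and 1.85 in forced air mice, with overlapping ranges of 1.538 to 1.705 and 1.607 to 2.077. Medians at 12 weeks were 1.5 in smoke and 1.753 in forced air mice. Those ranges, 1.475 to 1.541 and 1.577 to 2.417, did not overlap. At 12 weeks RNA integrity and exposure therefore cannot be told apart. At 24 weeks the ratio had medians of 1.508 in smoke and 1.505 in forced air mice. The lung label was checked on 7 alveolar type 2 cell markers, among them the surfactant gene Sftpc, whose summed signal ran from 10900 to 14500 in smoke mice at 24 weeks and from 11060 to 12220 in forced air mice. A single array stood apart among the controls at 24 weeks: replicate 4 of forced air at 24 weeks was the highest of its group for 27 of 39 members and the lowest for 0. On it the summed markers of 5 of 11 cell type lists were also the highest. These were alveolar macrophages (6732 on it, against 4553 to 5097 on the other arrays of its group), monocytes and interstitial macrophages (2986 on it, against 2045 to 2411), B and plasma cells (5822 on it, against 1844 to 3467), T and NK cells (2184 on it, against 1219 to 1893) and neutrophils (3297 on it, against 1888 to 3250). This array was singled out after its values were seen, and counts without it are given beside the results that use it.

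Most mitotic members were higher in smoke than in forced air mice at each of the 3 times, and fewer of the S phase members were. At 2 weeks 18 of 24 mitotic and 2 of 15 S phase members rose against forced air, beside 5.4% of all genes, and 0 members fell, beside 3.72%. At 12 weeks 23 mitotic and 6 S phase members rose, beside 12.5% of all genes, and 0 fell, beside 10.5%. At 24 weeks again 23 mitotic and 6 S phase members rose, beside 11.1% of all genes, and 0 fell, beside 6.68%. The median log2 change of the mitotic members was 0.46, 0.65 and 0.54 at 2, 12 and 24 weeks, and that of the S phase members 0.14, 0.26 and 0.20, while the median of all genes lay at 0.00, -0.02 and 0.00. Log2 changes are of the signal with 16 added, which understates the change of dim genes, and calls are limma's at a Benjamini-Hochberg adjusted p under 0.05 over all genes. The 2-week count changed with settings on the 3′/5′ ratios. With Gapdh and actin ratios as covariates 15 members rose, and 12 rose without the 6 arrays of the highest Gapdh ratio. None of these 6 was from a mouse that had smoke. They were replicates 3, 4 and 6 of forced air at 2 weeks, 1 and 2 of forced air at 12 weeks and untreated replicate 2. The count of 12 thus also rests on fewer control mice, and the share of each part was not tested. Without replicate 4 of forced air the 24-week count was 30. Without Cenpe and Ccne1, 17, 22 and 22 of 23 mitotic and 2, 6 and 6 of 14 S phase members rose at 2, 12 and 24 weeks.

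The proliferation marker gene Mki67, whose protein coats mitotic chromosomes and is absent from resting cells, had the largest change of all members at 2 weeks. Its signal was 133, 155 and 175 in smoke mice at 2 weeks, against 49.9, 74.6 and 90.2 in forced air mice, and these groups did not overlap (log2 change 0.95, SE 0.15, adjusted p = 9.12e-06, 1.93-fold higher). At 12 weeks the 5 smoke arrays read 123, 166, 178, 184 and 198, against 59.2, 69.6 and 74.7 in forced air mice, again with a gap (log2 change 1.13, SE 0.16, adjusted p = 1.53e-07). At 24 weeks it was 116, 171 and 204 in smoke mice, against 49.0, 63.7 and 106 in forced air mice, where the highest forced air array was replicate 4 and still lay below the lowest smoke array (log2 change 1.06, SE 0.15, adjusted p = 3.31e-07). Untreated mice had Mki67 signals of 51.5, 82.1 and 91.7, in the range of the forced air groups and below each smoke array at the 3 times.

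Birc5 codes for survivin, a subunit of the chromosomal passenger complex, and had the largest change of all members at 12 and 24 weeks. Its 5 smoke arrays at 12 weeks read 214, 229, 249.1, 272 and 324, against 73.6, 92.0 and 104.7 in forced air mice (log2 change 1.35, SE 0.16, adjusted p = 4.81e-09, 2.54-fold higher). The lowest smoke array lay above the highest forced air array. At 2 weeks the change was 0.90 and at 24 weeks 1.10, with the groups apart both times. Top2a, the topoisomerase that untangles sister chromatids, read 133, 135, 137.1, 148 and 175 on the 12-week smoke arrays, against 58.9, 64.6 and 68.8 in forced air mice (log2 change 1.02, SE 0.15, adjusted p = 2.46e-07). At 24 weeks the Top2a signal was 126.9, 156 and 182 in smoke mice, against 56.6, 69.0 and 112.3 in forced air mice (log2 change 0.93, SE 0.14, adjusted p = 7.99e-07). The Top2a groups did not overlap at any of the 3 times.

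**Figure D2:**
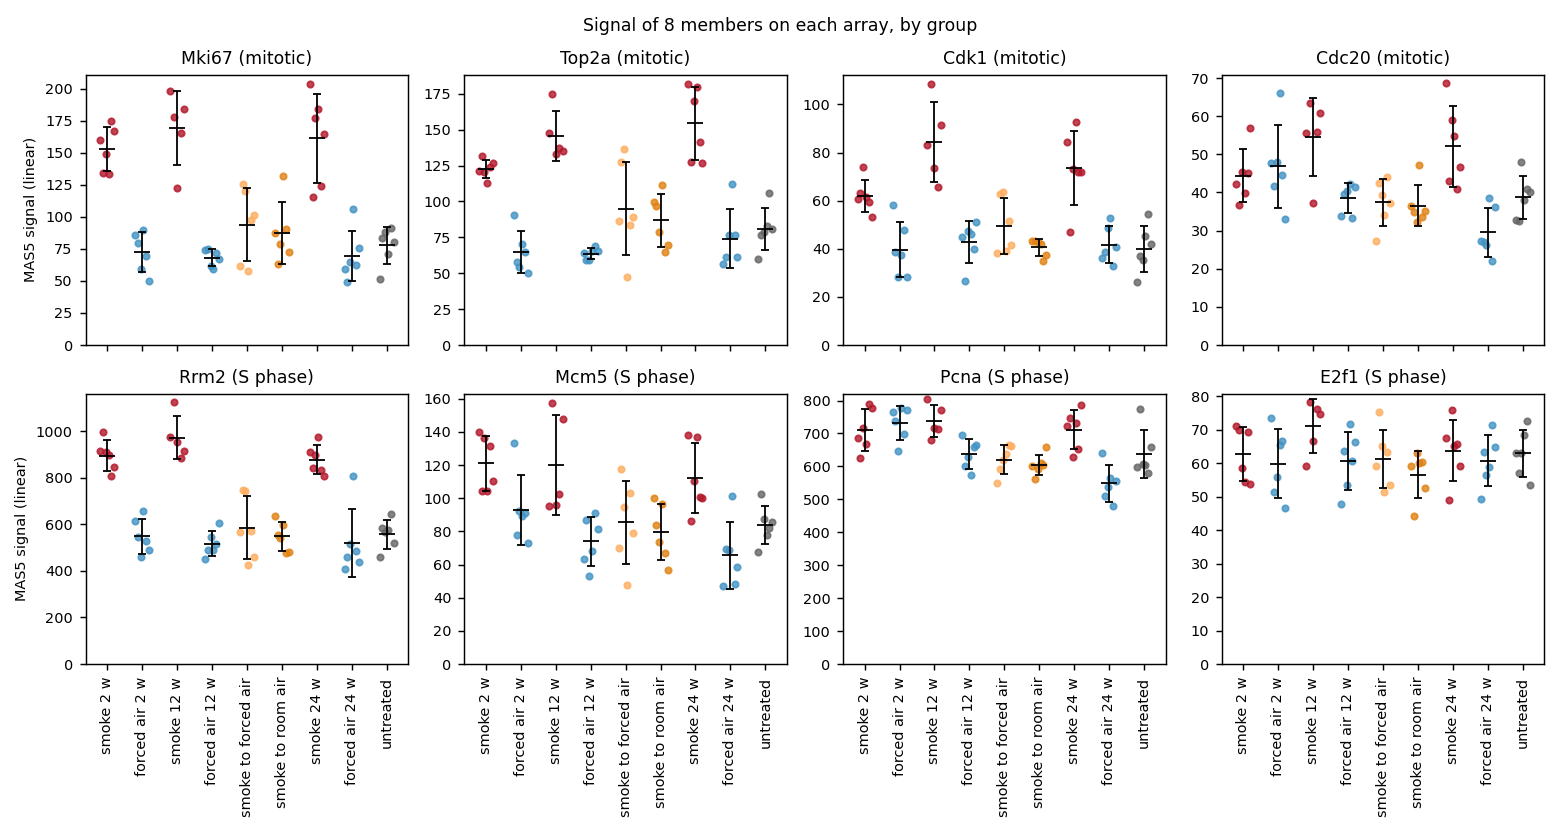
MAS5 signal (linear scale from 0) of 4 mitotic and 4 S phase members on each of 53 arrays, in 9 groups. Each point is 1 mouse, the dash is the group mean and the bar its SD. Mki67, Top2a and Rrm2 lie high in the smoke groups and low in both cessation groups, while E2f1 shows no group apart from the rest.

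Among the mitotic kinases and cyclins, Cdk1, the kinase that drives entry into mitosis, had signals of 65.5, 73.5, 83.0, 91.6 and 108 in 12-week smoke mice, against 26.7, 45.5 and 51.3 in forced air mice, with the groups apart (log2 change 0.77, SE 0.13, adjusted p = 8.87e-06). At 2 weeks its change was 0.51 (adjusted p = 0.00547) and at 24 weeks 0.63 (adjusted p = 0.000179), and at both times the groups overlapped. Ccna2, the A cyclin used in S phase and G2, rose at each time, by 0.61, 0.87 and 0.86. The B cyclin gene Ccnb2 had signals of 39.9, 46.0, 48.9, 54.5 and 58.7 in 12-week smoke mice, against 29.1, 35.8 and 43.8 in forced air mice, which overlapped (log2 change 0.33, SE 0.10, adjusted p = 0.0103). At 2 weeks the change of Ccnb2 did not pass (log2 change 0.25, SE 0.09, adjusted p = 0.0874). Aurkb, the Aurora kinase of the passenger complex, rose by 0.39, 0.74 and 0.56, with smoke arrays apart from forced air arrays at 12 weeks. Aurka, the Aurora kinase of the spindle poles, was at 0.14 (adjusted p = 0.301) at 2 weeks and rose by 0.35 and 0.26 at 12 and 24 weeks.

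The kinetochore ties chromosomes to the spindle, and its checkpoint delays their parting until all are attached. Bub1b (BubR1, a checkpoint protein) rose by 0.60, 0.75 and 0.53 with the smoke arrays above the forced air arrays each time, and its partner kinase gene Bub1 rose by 0.35, 0.46 and 0.30. Nuf2, a subunit of the outer kinetochore complex that also holds Ndc80, rose by 0.59, 0.60 and 0.51. The checkpoint kinase gene Ttk rose at 2 weeks (log2 change 0.35, SE 0.10, adjusted p = 0.0239) and had the smallest change of the mitotic members later, with no call at 12 weeks (0.26, adjusted p = 0.0818) or 24 weeks (0.15, adjusted p = 0.329). Its signals were 7.33, 16.9 and 22.2 in smoke mice at 24 weeks and 8.07, 12.1 and 21.2 in forced air mice, so the groups overlapped. Cenpa, the histone variant of centromeres, and Cenpf were not called at 2 weeks (0.11 and 0.29) and rose at 12 weeks (0.41 and 0.42) and 24 weeks (0.29 and 0.45). The rise of Cenpa at 24 weeks depends on the probe set, since the one with the largest spread gave -0.04. The kinetochore motor gene Cenpe was detected on 5 of 6 smoke and 0 of 6 forced air arrays at 24 weeks, with mean signals of 22.9 ± 2.78 in smoke and 9.77 ± 3.68 in forced air mice (SD, n = 6 each). No fold or p is printed for Cenpe, which was kept for testing through the smoke groups where it is high.

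Several mitotic members act on the spindle. Tpx2, which activates Aurora A and starts microtubules near chromosomes, had signals of 59.1, 71.8 and 81.96 in 2-week smoke mice, against 28.8, 37.4 and 41.3 in forced air mice (log2 change 0.74, SE 0.11, adjusted p = 1.1e-06), and the groups were apart at all 3 times. Nusap1, a microtubule-binding spindle protein, rose by 0.75, 1.00 and 0.64, and Prc1, which bundles the central spindle, by 0.44, 0.87 and 0.70. The motor genes Kif11, Kif23 and Kif2c rose at each time, by 0.54, 0.40 and 0.52 at 2 weeks and by 0.54, 0.54 and 0.35 at 24 weeks. Kif20a, a motor of cytokinesis, was at 0.17 (adjusted p = 0.343) at 2 weeks and rose by 0.47 and 0.45 later. The genes for 2 partners of the ubiquitin ligase that ends mitosis, the anaphase-promoting complex, were not both called at 2 weeks. Ube2c, its ubiquitin-conjugating enzyme, rose by 0.48, 0.72 and 0.51 with the groups apart at each time. Cdc20, its activator, was not called at 2 weeks (log2 change -0.05, SE 0.10, adjusted p = 0.828), when its signal was 36.8, 43.6 and 56.9 in smoke mice and 33.1, 46.0 and 66.1 in forced air mice. At 24 weeks Cdc20 was 41.0, 50.8 and 68.6 in smoke mice, against 22.1, 27.2 and 38.4 in forced air mice, with no overlap (log2 change 0.58, SE 0.10, adjusted p = 3.31e-05).

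The largest change of the S phase members at each time was that of Rrm2, a gene of nucleotide supply. Rrm2, the subunit of ribonucleotide reductase that is made in S phase, had signals of 807, 904 and 994 in 2-week smoke mice, against 459, 535 and 655 in forced air mice, with no overlap (log2 change 0.70, SE 0.11, adjusted p = 1.14e-05). At 12 weeks the smoke arrays read 886, 914, 955, 976 and 1123, against 449, 504 and 603 in forced air mice (log2 change 0.89, SE 0.12, adjusted p = 3.77e-08). At 24 weeks Rrm2 was 807, 869 and 976 in smoke mice, against 409, 471 and 808 in forced air mice (log2 change 0.77, SE 0.11, adjusted p = 4.76e-07), and only replicate 4 of forced air reached the smoke range. Tk1, the cytosolic thymidine kinase, rose as well, with signals of 46.6, 68.4, 70.1, 75.1 and 84.8 on the 12-week smoke arrays, against 26.5, 29.3 and 36.7 in forced air mice (log2 change 0.87, SE 0.12, adjusted p = 1.89e-07), and changes of 0.48 at 2 weeks and 0.61 at 24 weeks. Rrm1, the large subunit of the reductase, was called at 12 weeks and not at 2 or 24 weeks (log2 change 0.26, SE 0.08, adjusted p = 0.0215). Its probe set with the largest spread gave a change of -0.24 there, so the direction of Rrm1 rests on the probe set. Tyms, the thymidylate synthase, was not called at any time (-0.09, -0.01 and 0.03), and at 12 weeks its signals overlapped at 8.90, 8.98, 13.3, 14.4 and 15.7 in smoke mice and 7.96, 11.7 and 22.7 in forced air mice.

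The MCM proteins form the ring-shaped replicative helicase, and its 6 genes were not all called, nor at the same times. Mcm5 had signals of 95.5, 95.9, 103, 148 and 157.6 on the 12-week smoke arrays, against 53.4, 74.9 and 91.2 in forced air mice, with the lowest smoke array above the highest forced air array (log2 change 0.58, SE 0.16, adjusted p = 0.00452). At 24 weeks Mcm5 was 86.1, 105.4 and 138.03 in smoke mice, against 47.1, 63.7 and 101.4 in forced air mice, which overlapped (log2 change 0.67, SE 0.15, adjusted p = 0.000773), and at 2 weeks it was not called (0.35, adjusted p = 0.138). Mcm2 rose at 24 weeks, with signals of 68.8, 83.1 and 93.5 in smoke mice, against 52.5, 56.7 and 82.6 in forced air mice (log2 change 0.36, SE 0.12, adjusted p = 0.0222). Mcm6 rose at 12 weeks (0.31, adjusted p = 0.0316) and Mcm7 at 24 weeks (0.30, adjusted p = 0.0279). Mcm3 was not called (0.30, 0.28 and 0.18 at 2, 12 and 24 weeks), nor was Mcm4 (0.14, -0.10 and -0.13). The change nearest to 0 at 2 weeks was that of Mcm7, at 200.5, 249.1 and 307 in smoke mice and 197, 251 and 311 in forced air mice (log2 change -0.0008, SE 0.10, adjusted p = 0.997). The Mcm4 signal at 24 weeks was 614, 725 and 985 in smoke mice and 573, 918 and 1043 in forced air mice.

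Pcna, the sliding clamp of DNA polymerase, was not called at 2 weeks, at 626, 701 and 789.8 in smoke mice and 646, 751 and 777 in forced air mice (log2 change -0.04, SE 0.07, adjusted p = 0.739). It rose at 12 weeks (0.21, adjusted p = 0.024) and at 24 weeks, when it was 629, 726 and 787 in smoke mice, against 479, 546 and 642 in forced air mice (log2 change 0.37, SE 0.07, adjusted p = 2.81e-05). Cdc6, E2f1, Ccne2 and Ccne1 were not called at any of the 3 times. Cdc6, which loads the helicase on origins, was at 0.14, 0.07 and 0.07. E2f1, the founding E2F factor, was 59.3, 66.8, 74.9, 76.4 and 78.5 on the 12-week smoke arrays, against 47.8, 62.1 and 71.8 in forced air mice (log2 change 0.19, SE 0.10, adjusted p = 0.155). The E cyclin gene Ccne2 was 72.6, 90.3 and 107 in smoke mice at 24 weeks, against 70.5, 94.0 and 109.8 in forced air mice (log2 change 0.02, SE 0.13, adjusted p = 0.95). Ccne1 was detected on 4 of 6 smoke and 1 of 6 forced air arrays at 24 weeks, with signals of 28.01, 41.3 and 72.2 in smoke mice and 28.3, 46.0 and 58.8 in forced air mice (log2 change -0.03, SE 0.19, adjusted p = 0.943). These groups overlapped for E2f1, Ccne2 and Ccne1. A test that misses the threshold does not show that the levels were equal.

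**Figure D3:**
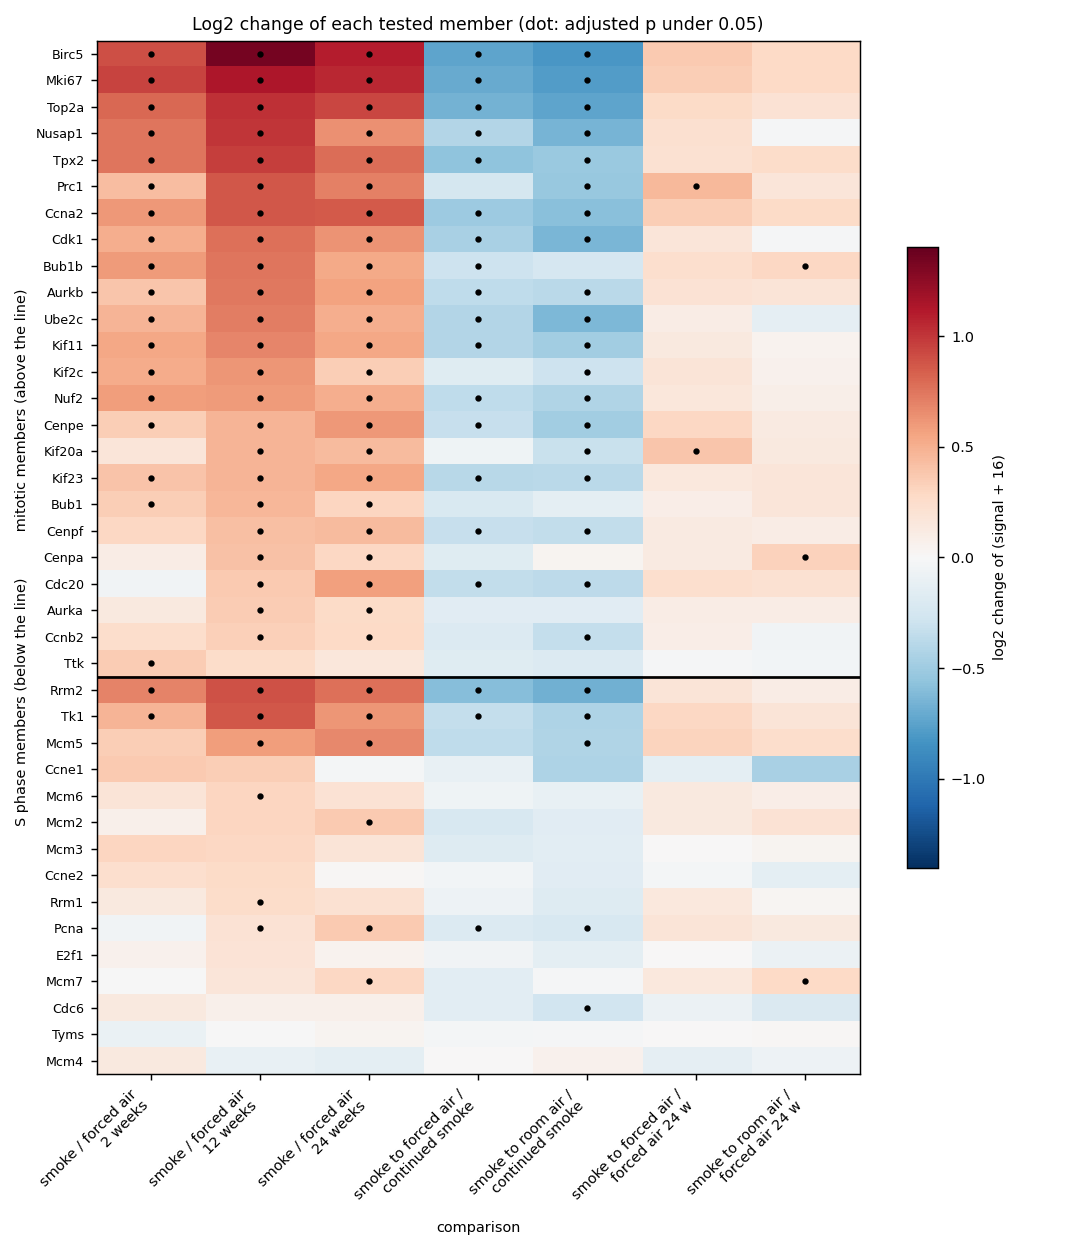
Log2 change of the signal with 16 added for 39 tested members (rows, mitotic above the line and S phase below it, each ordered by the 12-week change) in 7 comparisons (columns). Red is higher and blue lower in the group named first, and a dot marks an adjusted p under 0.05. Dots fill most of the mitotic block in the smoke columns, with 18, 23 and 23 of 24, and few of the S phase rows.

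Counts of members whose groups did not overlap were also higher in the mitotic class. Every smoke array exceeded every forced air array for 13 mitotic and 1 S phase member at 2 weeks, beside 3.37% of all genes, for 19 and 4 at 12 weeks, beside 6.67%, and for 9 and 1 at 24 weeks, beside 5.19%. Without Cenpe these were 18 mitotic members at 12 weeks and 8 at 24 weeks. No member lay wholly below forced air, beside 2.12%, 4.2% and 2.32% of all genes at 2, 12 and 24 weeks. The class means per array, set to 0 at the mean of untreated mice, were 0.36 ± 0.073 (SD, n = 6) for the mitotic members in smoke mice at 2 weeks and -0.10 ± 0.134 in forced air mice (n = 6). The S phase mean was 0.25 ± 0.049 in those smoke mice and 0.05 ± 0.134 in those forced air mice. At 12 weeks the mitotic mean was 0.53 ± 0.139 in smoke mice (n = 5) and -0.14 ± 0.066 in forced air mice (n = 6), and the S phase mean 0.32 ± 0.140 in smoke mice and 0.01 ± 0.072 in forced air mice. At 24 weeks the mitotic mean was 0.44 ± 0.188 in smoke mice and -0.12 ± 0.153 in forced air mice, and the S phase mean 0.18 ± 0.132 in smoke mice and -0.07 ± 0.131 in forced air mice. Within a group the classes tended to peak on the same mouse: the array with the highest mitotic mean also had the highest S phase mean in 6 of 9 groups. In 12-week smoke mice that was replicate 2, the highest of its group for 28 of 39 members.

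**Figure D4:**
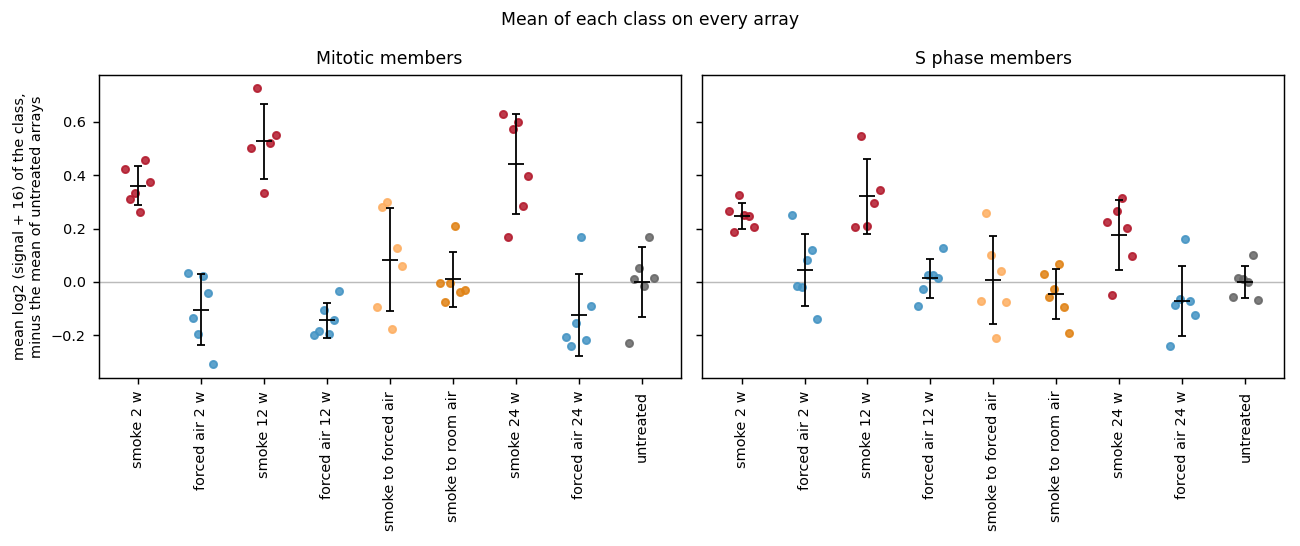
Mean log2 (signal + 16) of the 24 mitotic members (left) and the 15 S phase members (right) on each array, minus the mean of the untreated arrays. Points are mice, dashes group means and bars SDs. The mitotic means of smoke mice run from 0.17 to 0.73, and those of forced air mice from -0.31 to 0.17.

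In tests of whether the smoke effect differed between times, Cdc20 and Pcna were called. The change with smoke at 24 weeks exceeded that at 2 weeks by 0.63 for Cdc20 (SE 0.15, adjusted p = 0.00933) and by 0.41 for Pcna (SE 0.09, adjusted p = 0.00748). These 2 of 39 members stand beside 3.85% of all genes with a larger and 2.57% with a smaller effect at 24 weeks, a similar share. In forced air mice the median signals of both genes were lower at 24 than at 2 weeks, and in smoke mice slightly higher. Against untreated mice, Pcna was called higher in forced air mice at 2 weeks and lower at 24 weeks. The part of the forced air groups in these differences was not tested. Between 12 and 2 weeks 0 members were called (6 of 39 at an unadjusted p under 0.05, beside 16.8% of all genes at that limit), beside 1.48% of genes with a larger and 0.719% with a smaller effect at 12 weeks. Between 24 and 12 weeks 0 members were called (1 of 39 at an unadjusted p under 0.05, beside 9.41% of all genes at that limit), beside 0.02% and 0.0266%. The differences in count between 2 weeks and the later times are not shown as differences in effect for members other than Cdc20 and Pcna.

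Markers of macrophages rose in the same comparisons as the members. Of 9 alveolar macrophage markers tested, 6, 6 and 7 rose with smoke at 2, 12 and 24 weeks, and their summed signal was 7008 to 7642 in smoke mice at 2 weeks, against 4816 to 5639 in forced air mice. At 12 weeks that sum was 7389 to 8410 in smoke mice, against 4726 to 5834 in forced air mice, and at 24 weeks 7065 to 9465 in smoke mice, against 4553 to 6732 in forced air mice. Of 8 monocyte and interstitial macrophage markers 5, 6 and 7 rose, with sums of 3101 to 3715 in smoke mice and 2281 to 2591 in forced air mice at 2 weeks, of 4434 to 5342 in smoke mice and 2340 to 2809 in forced air mice at 12 weeks, and of 4118 to 4512 in smoke mice and 2045 to 2986 in forced air mice at 24 weeks. Of 8 B and plasma cell markers 0, 3 and 2 rose, with sums of 3881 to 5268 in smoke mice and 1844 to 5822 in forced air mice at 24 weeks, and Pax5 was present on no array. Of 4 germinal centre B cell markers tested 0, 0 and 1 rose, and Mef2b was present on no array. Of 9 neutrophil markers 0 rose at each time and of 9 T and NK cell markers 0, 1 and 1. Endothelial markers fell for 4, 7 and 0 of 8, and ciliated cell markers for 1, 4 and 0 of 5. These counts stand beside 5.4%, 12.5% and 11.1% of all genes that rose with smoke at 2, 12 and 24 weeks. Of all genes 3.72%, 10.5% and 6.68% fell at these times. The part of these cell types in the members' changes was not tested.

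After smoke was stopped most mitotic members were lower than in mice of continued smoke. In the smoke-to-forced-air group 16 of 24 mitotic and 3 of 15 S phase members fell against continued smoke at 24 weeks, beside 7.45% of all genes, and 0 rose, beside 7.68%. In the smoke-to-room-air group 19 mitotic and 5 S phase members fell, beside 9.06% of all genes, and 0 rose, beside 9.12%. The median log2 change was -0.35 for mitotic and -0.15 for S phase members after forced air, and -0.40 and -0.16 after room air, while the median of all genes was 0.01 and 0.00. Both comparisons use the same 6 arrays of continued smoke, which also serve in the 24-week smoke comparison, so their values are given side by side and not as independent results. With smoke replicate 1 left out, the forced air count was 12. Without Cenpe and Ccne1, 15 mitotic and 3 S phase members fell after forced air, and 18 mitotic and 5 S phase members after room air.

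Birc5 had the largest fall in both groups, with signals of 78.5, 118 and 176 after forced air and 95.8, 106 and 155 after room air, against 146, 217 and 293 with continued smoke (log2 change -0.74, SE 0.16, adjusted p = 0.000451 after forced air, and log2 change -0.82, SE 0.16, adjusted p = 8.39e-05 after room air). Both cessation groups overlapped the smoke group. Mki67 was 58.0, 99.2 and 126 after forced air and 63.3, 83.4 and 132 after room air, against 116, 171 and 204 with continued smoke (-0.71, adjusted p = 0.000487, and -0.78, adjusted p = 0.000103). Its highest cessation arrays reached the lower smoke arrays. Rrm2 was 426, 569 and 748 after forced air and 476, 549 and 634 after room air, against 807, 869 and 976 with continued smoke, and was the member whose arrays lay below the smoke arrays in both groups (log2 change -0.60, SE 0.11, adjusted p = 8.52e-05, and log2 change -0.67, SE 0.11, adjusted p = 1.09e-05). Against continued smoke, 5 mitotic members (Top2a, Cdk1, Cenpe, Prc1 and Ube2c) and Rrm2 of the S phase lay wholly below after room air, beside 4.48% of all genes, and 0 mitotic members and Rrm2 after forced air, beside 3.79%. Without Cenpe, which was kept for testing through the smoke groups where it is high, 4 mitotic members lay wholly below after room air. No member lay wholly above continued smoke, beside 4.55% of all genes after room air and 3.08% after forced air. Cenpe was detected on 0 of 6 arrays after room air, with mean signals of 11.9 ± 3.03 after room air and 22.9 ± 2.78 with continued smoke (SD, n = 6 each).

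Among the S phase members, Rrm2, Tk1 and Pcna fell in both cessation groups. Tk1 fell after forced air (-0.33, adjusted p = 0.0482) and room air (-0.43, adjusted p = 0.00548), and Pcna fell too (-0.19, adjusted p = 0.0395, and -0.23, adjusted p = 0.0101). Mcm5 was at -0.36 (adjusted p = 0.101) after forced air and fell by 0.42 (adjusted p = 0.0395) after room air. Mcm2, Mcm3, Mcm4, Mcm6 and Mcm7 were not called in either group. Cdc6 fell after room air (log2 change -0.27, SE 0.09, adjusted p = 0.0275), though it had not been called with smoke. Mcm4 had the change nearest to 0 after forced air, at 595, 786 and 931, against 614, 725 and 985 with continued smoke (0.01), and Tyms after room air, at 7.30, 13.1 and 14.04, against 9.83, 12.1 and 16.8 (-0.02). Of the mitotic members, Bub1, Aurka, Cenpa and Ttk were called in neither group. Kif20a was 33.02, 37.3 and 41.0 after forced air and 24.7, 43.2 and 48.3 with continued smoke (log2 change -0.06, SE 0.11, adjusted p = 0.807), and it fell after room air (log2 change -0.31, SE 0.11, adjusted p = 0.0369). Cenpa was 67.5, 79.96 and 103 after room air and 58.1, 81.1 and 97.8 with continued smoke (0.04, adjusted p = 0.855), with overlapping groups.

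Set against forced air at 24 weeks, few members were called in mice that had stopped. In the smoke-to-forced-air group Prc1 (log2 change 0.46, SE 0.12, adjusted p = 0.0252) and Kif20a (log2 change 0.38, SE 0.11, adjusted p = 0.0492) were higher, 2 of 39 members beside 1.46% of all genes, and 0 were lower, beside 0.526%. Prc1 was 90.5, 113.8 and 153 there, against 64.9, 74.3 and 100.2 in forced air mice, with overlap. Kif20a was detected on 6 of 6 arrays in that group and on 1 of 6 in forced air mice, with signals of 33.02, 37.3 and 41.0 after smoke and 19.1, 23.8 and 34.3 in forced air mice. In the smoke-to-room-air group Cenpa (log2 change 0.33, SE 0.10, adjusted p = 0.013), Bub1b (log2 change 0.29, SE 0.10, adjusted p = 0.0479) and Mcm7 (log2 change 0.27, SE 0.10, adjusted p = 0.0488) were higher, 3 of 39 beside 9.8% of all genes, and 0 were lower, beside 5.32%. Cenpa was 67.5, 79.96 and 103 after room air, against 52.4, 63.2 and 66.1 in forced air mice, and these groups did not overlap. This was the 1 member that lay wholly above forced air after room air, beside 3.97% of all genes, and 0 did so after forced air, beside 0.758%. Mcm7 was 205, 241 and 269 after room air, against 156.9, 192 and 241 in forced air mice, with overlap. Without replicate 4 of forced air the counts were 2 and 3. The 3 after room air were then all mitotic members, so Mcm7 was no longer called. Both cessation groups are set here against the same 6 forced air arrays. The calls rest on few arrays: the count after forced air was 0 without replicate 2, 3 or 5 of forced air or without replicate 2, 3, 5 or 6 of the cessation group, and 1 without its replicate 4. The count after room air was 1 without replicate 2 or 3 of forced air or without replicate 1, 4, 5 or 6 of the cessation group, and 5 without replicate 1 of forced air. Each of the 5 calls was also lost under at least 1 other setting. Several cell type markers were also higher in the room air group than in forced air mice. They were 5 of 8 B and plasma cell, 4 of 9 T and NK cell and 4 of 9 neutrophil markers. The summed B and plasma cell signal was 3147 to 5411 after room air and 1844 to 5822 in forced air mice. Of the alveolar macrophage markers Marco (0.61), Cd68 (0.41) and Itgax (0.39) were higher. Of the monocyte and interstitial macrophage markers Ccr2 (0.80) and Cx3cr1 (1.08) were. The other tested markers of these macrophage lists were not called. The part of all these markers in the members' calls was not tested. Changes nearest to 0 were those of Ttk and Tyms after forced air and of Nusap1 and Tyms after room air. Nusap1 was 49.9, 62.2 and 87.3 after room air and 50.1, 67.4 and 88.1 in forced air mice, and Tyms was 7.30, 13.1 and 14.04 after room air and 8.69, 10.8 and 19.1 in forced air mice. Ttk was 8.79, 12.9 and 15.3 after forced air and 8.07, 12.1 and 21.2 in forced air mice. The median change against forced air was 0.19 for mitotic and 0.13 for S phase members after forced air, and 0.15 and 0.03 after room air. Mki67 stood at 0.35 (SE 0.15, adjusted p = 0.234) and 0.27 (SE 0.15, adjusted p = 0.229).

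Between the cessation groups 0 of 39 members were called in limma's test (4 at an unadjusted p under 0.05, beside 9.65% of all genes at that limit), beside 0.459% of all genes that were higher and 0.506% that were lower after room air. Prc1 was 85.8, 87.2 and 96.8 after room air and 90.5, 113.8 and 153 after forced air (log2 change -0.29, SE 0.12, adjusted p = 0.338). Aurka had the smallest difference among mitotic members, at 15.2, 17.2 and 24.4 after room air and 14.8, 17.97 and 22.9 after forced air (-0.01). Ccne1 had the change farthest from 0 (log2 change -0.32, SE 0.19, adjusted p = 0.644). The room air arrays of Cdk1 spanned 34.9 to 43.4, and those of the forced air arm 38.4 to 63.5. In the cessation groups 1 of 9 alveolar macrophage markers rose and 7 fell against continued smoke after forced air, and 0 rose and 7 fell after room air, with sums of 4931 to 6045 after forced air and 4698 to 5674 after room air, against 7065 to 9465 with continued smoke. Of 8 monocyte and interstitial macrophage markers 0 rose and 5 fell after forced air, and 2 rose and 5 fell after room air, with sums of 2379 to 3153 after forced air and 2615 to 3778 after room air, against 4118 to 4512 with continued smoke. Of all genes 7.68% rose and 7.45% fell against continued smoke after forced air, and 9.12% rose and 9.06% fell after room air. The part of these markers in the members' changes was not tested.

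The sham procedure itself was set against untreated mice, where time and handling differ together. At 2 weeks Tpx2, Bub1b and Ttk were lower in forced air mice, 3 of 24 mitotic members beside 12.4% of all genes, and Pcna and Cdc6 were higher, 2 of 15 S phase members beside 10.8%. Both shares lay close to those of all genes. Cdc6 was 27.1, 31.02 and 40.3 in forced air mice at 2 weeks, against 20.3, 24.7 and 25.7 in untreated mice (log2 change 0.25, SE 0.09, adjusted p = 0.0364). At 12 weeks Tpx2, Prc1 and Bub1 were lower, beside 3.56% of all genes, and Cdc6 was higher (log2 change 0.40, SE 0.09, adjusted p = 0.00432), beside 2.2%. Cdc6, the replication licensing gene, gave signals at 12 weeks of 32.5, 36.7 and 41.4 in forced air mice, against 20.3, 24.7 and 25.7 in untreated mice, and each forced air array lay above the highest untreated array. At 24 weeks Pcna was lower in forced air mice (log2 change -0.21, SE 0.07, adjusted p = 0.0249), beside 9.39% of all genes, and 0 members were higher, beside 4.71%. Leaving out 1 array moved these counts: at 2 weeks 0 members were called without untreated replicate 5, 1 without untreated replicate 4, 2 without forced air replicate 4 or 6, and 3 without forced air replicate 1 or 5 or untreated replicate 2 or 3. At 12 weeks 2 were called without forced air replicate 1 or untreated replicate 2 or 5. At 24 weeks 0 were called without forced air replicate 2 or untreated replicate 2, 3 without forced air replicate 6 or untreated replicate 1, and 5 without forced air replicate 4. Pcna was 479, 546 and 642 in forced air mice at 24 weeks, against 579, 606 and 774 in untreated mice. Tpx2 was 29.5, 32.8 and 39.3 in forced air mice at 12 weeks, against 31.98, 49.5 and 58.95 in untreated mice (log2 change -0.38, SE 0.11, adjusted p = 0.0219). With the number after the group letter of the titles as a replicate block the 12-week calls numbered 2, and in that comparison the arrays of the 3 shared numbers deviated together (r of 0.103 to 0.242 across genes, which are not independent replicates). With 3′/5′ ratios as covariates the 2-week calls numbered 0, and the 12-week calls numbered 0 without the arrays of the highest Gapdh ratio.

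The brakes and the G1 drivers of the cycle, which were no members, changed in part. Cdkn1a, the p21 inhibitor induced by p53, was 372, 429 and 452 in 2-week smoke mice, against 244, 303 and 363 in forced air mice (log2 change 0.49, SE 0.11, adjusted p = 0.00216), and rose by 0.57 and 0.41 at 12 and 24 weeks. In untreated mice Cdkn1a was 341, 430.1 and 715, above forced air mice at 2 and 12 weeks (-0.55, adjusted p = 0.000319, and -0.59, adjusted p = 0.0004, forced air against untreated). Cdkn1c, the p57 inhibitor, fell with smoke by 0.36, 0.47 and 0.30. Against untreated mice Cdkn1c was called higher in forced air mice at 2 weeks and was not called at 12 or 24 weeks. The other 5 inhibitor genes (Cdkn1b, Cdkn2a, Cdkn2b, Cdkn2c and Cdkn2d) were not called with smoke. Cdkn2b, the p15 inhibitor of the G1 kinases, was higher after cessation, at 235, 294 and 319 after forced air and 295, 337 and 437 after room air, against 157.7, 204 and 257 with continued smoke and 177, 214 and 235 in forced air mice. It rose against continued smoke (0.47 after forced air, adjusted p = 0.000718, and 0.70 after room air, adjusted p = 7.93e-07) and against forced air (0.42, adjusted p = 0.0229, and 0.65, adjusted p = 9.99e-06). Forced air mice at 24 weeks were lower in Cdkn2b than untreated mice, which had 273, 336 and 383 (log2 change -0.60, SE 0.10, adjusted p = 5.71e-05), with no overlap. Cdkn2a fell after cessation (-0.25 and -0.32 against continued smoke). Cdkn1a fell against continued smoke after forced air (-0.41, adjusted p = 0.00715) and was not called after room air (-0.18, adjusted p = 0.285). Cdkn1b, Cdkn1c, Cdkn2c and Cdkn2d were called in neither group against continued smoke. Of the D cyclins and G1 kinases, Ccnd3 fell at 2 and 12 weeks (-0.29 and -0.22), Cdk6 rose at 12 weeks (0.37) and Ccnd2 at 24 weeks (0.18). Against untreated mice, Ccnd3 and Cdk4 were called higher in forced air mice at 2 weeks, and Cdk6 lower at 12 weeks. Ccnd1, Cdk2 and Cdk4 were not called with smoke.

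Further genes of mitosis and replication were counted from lists, beside 5.4%, 12.5% and 11.1% of all genes that rose and 3.72%, 10.5% and 6.68% that fell with smoke at 2, 12 and 24 weeks. Of 38 further mitosis genes tested 17, 27 and 22 rose with smoke at 2, 12 and 24 weeks and 0 fell, with medians of 0.27, 0.48 and 0.30. At 12 weeks Cep55, of the final cut between daughter cells, rose by 1.28 (SE 0.18), Cdca3 by 1.03 (SE 0.13) and the condensin subunit gene Ncapg by 0.96 (SE 0.12). Of 35 further replication genes 7, 12 and 15 rose, and 1 fell at 2 weeks, with medians of 0.04, 0.18 and 0.20. Uhrf1, which copies DNA methylation with Dnmt1, rose by 1.13 (SE 0.12), the helicase cofactor gene Gins1 by 0.74 (SE 0.10) and the repair gene Brca1 by 0.51 (SE 0.09) at 12 weeks. Of 15 RB and E2F genes 4 rose at each time, and 1 fell at 12 weeks, with E2f8 at 0.85 (SE 0.14) and Rbl1 at 0.49 (SE 0.08) at 12 weeks. Of 10 p53 targets 1 rose and 1 fell at each time, shares close to those of all genes at 12 and 24 weeks. Against continued smoke, where 7.45% of all genes fell after forced air and 9.06% after room air, 13 of the 38 mitosis genes fell after forced air and 17 after room air, and 7 and 8 of the 35 replication genes. The gene of the E2F repressor E2f7 fell by 0.34 after forced air and by 0.53 after room air. Set against forced air at 24 weeks, 9 of the 35 replication genes were higher after room air, among them Cdt1, Gins1 and Fen1, beside 9.8% of all genes. After forced air 0 were, beside 1.46%. Of the 38 mitosis genes 2 were higher after room air and 0 after forced air. No gene of these 2 lists was lower. E2f3 was higher in both cessation groups, by 0.35 after forced air and 0.52 after room air.

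Several probe sets of a gene could be set side by side for 27 members. In the smoke comparisons 0 of the 27 had probe sets called in opposite directions. Of their 40 other kept probe sets 10, 16 and 13 were called higher at 2, 12 and 24 weeks, and 0 lower. In 9 members at 2 weeks, 15 at 12 weeks and 17 at 24 weeks some probe sets passed the test and others did not, among them Top2a, Kif11 and Tpx2. The levels of different probe sets are not comparable, so no order of level among the members is given.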

How the data were processed

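RNA of 53 mouse lungs was measured, 1 mouse on each Affymetrix 430 2.0 array, from 50 ng of total RNA that was amplified before hybridisation, per the labels' protocols. The authors deposited a MAS5 signal intensity for each probe set, scaled by them to a trimmed mean of 150 as the values show, and a detection p-value for each call of presence. MAS5 is named in the submitters' processing notes, with a version not given in the sources used here. Members, lists of other genes and markers were chosen with earlier results of these data known.

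From these values, probe sets with 1 gene symbol and a detection p under 0.05 on 50% of the arrays of any group were kept, and the brightest stood for its gene. Signals with 16 added were taken to log2 and fitted with limma 3.58.1 in R 4.3.3 (53 arrays, 1 mean per group, eBayes with trend, two-sided). Adjustment over 15030 genes followed Benjamini-Hochberg, with 0.05 as the limit of a call, and an error printed as SE is limma's. The fit was tested on simulated data. The number of arrays limits the precision. Tables and figures used Python 3.11.15 with pandas 2.3.3, numpy 2.4.6 and matplotlib 3.10.9. Signals per group are given for Mki67, Top2a, Birc5, Cdk1, Ccnb2, Plk1, Cdc20, Foxm1, Mcm2, Mcm5, Pcna, Rrm2, Tk1, Ccne1, Ccne2 and E2f1, and for the members with the largest called and the smallest change of each class in a comparison of groups. Other genes are named where called with the 3 largest changes of their list, and inhibitors and D cyclins whatever their result. Signals of further genes, Cdkn1a and Cdkn2b among them, are shown by choice after their values were seen. Promoter windows are RefSeq's, assembly GRCm38.p6. Alternatives were other filters, pseudocounts, probe sets, normalizations, array sets, covariates and blocks, among them the number after the group letter in the titles, whose pairing the labels do not state and which was checked through the correlation of deviations from group means.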

Additional observations from a re-analysis of the deposited data

Results flagged for a closer look

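On each array the signals of 32 members were checked within the 9 groups for an array far from the others of its group. Of 288 group checks 22 found one. The limit used is meant to flag about 1 in 20 of independent checks. Checks of different members share the same arrays, so the count cannot be judged against that share. Forced air at 24 weeks held 6 of the 22, all high and all on replicate 4. They were Top2a at 112.3, Birc5 at 143.6, Mcm2 at 82.63, Rrm2 at 807.9, Mcm6 at 243.6 and Kif11 at 27.81. Smoke mice at 12 weeks had Mcm2 at 136.6 and Aurka at 28.7, both high on replicate 2. Smoke mice at 2 weeks had Ttk at 9.632 on replicate 4 and Mcm6 at 293 on replicate 3. Smoke mice at 24 weeks had Plk1 at 18.26 on replicate 4.

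After room air, Cdc20 was at 47.27 and Aurka at 24.43, both on replicate 4, and Tyms at 7.297 and Kif20a at 15.2, both on replicate 1. Forced air mice had Mcm5 at 133.1 on replicate 1 at 2 weeks and Tyms at 22.7 on replicate 3 at 12 weeks. Untreated mice had Ccnb2 at 44.34, Tk1 at 37.4 and Plk1 at 1.955 on replicate 5, and Mcm2 at 92.38 and Mcm7 at 275 on replicate 2.

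The effect of smoke differed between 24 and 2 weeks by 0.627 on the log2 scale for Cdc20 and by 0.4124 for Pcna, larger at 24 weeks in both, in limma's test of that difference. They were 2 of 39 members, beside 3.85% of all genes with a larger effect at 24 weeks, a similar share.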

How the results depend on the processing

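Members called in the smoke comparisons kept their direction under the alternatives run, except Rrm1 at 12 weeks (-0.2377) and Cenpa at 24 weeks (-0.0442), each on the probe set with the largest spread. The next counts are of members called under every alternative but the replicate block and the minimum log2 change, which are given apart. They were 12 of 20 members at 2 weeks, 24 of 29 at 12 weeks and 23 of 29 at 24 weeks. Against continued smoke they were 11 of 19 after forced air and 20 of 24 after room air. Cdc20 and Pcna were kept between 24 and 2 weeks, and 0 members in the other comparisons. A minimum absolute log2 change of 0.5 left 12, 17 and 19 members at 2, 12 and 24 weeks, 6 after forced air and 10 after room air against continued smoke, 0 in each cessation group against forced air, 0 at each time between forced air and untreated mice, and 1 between 24 and 2 weeks. With a pseudocount of 1 the mitotic median was 0.6566, 0.97 and 0.798 at 2, 12 and 24 weeks, -0.5272 after forced air and -0.627 after room air. Without the arrays of the highest Gapdh 3′/5′ ratio 12 members were called at 2 weeks. Replicates 3, 4 and 6 of forced air at 2 weeks were among the arrays left out. The cause of these shifts was not tested.

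The small counts moved most. Smoke to forced air against forced air gave 1 without the detection filter, 0 with only the groups compared and 0 with the probe set of the largest spread. Smoke to room air against forced air gave 1 without the filter, 0 with that probe set and 5 with ranges of the number in the sample titles as a block, ranges that were placed after the data had been seen. Forced air against untreated mice at 2 weeks gave 2 with quantile normalization, 0 with 3′/5′ ratios as covariates and 1 without the high-ratio arrays. At 12 weeks it gave 1 with only the groups compared, 2 with covariates and 0 without the high-ratio arrays. At 24 weeks it gave 4 with quantile normalization, 2 with a pseudocount of 1, 0 with only the groups compared, 3 with the title ranges and 0 without the high-ratio arrays. Between 12 and 2 weeks covariates gave 1.

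Leaving out 1 array at a time gave 18 to 22 called members at 2 weeks, 27 to 31 at 12 weeks and 25 to 30 at 24 weeks. It gave 12 to 20 after forced air (12 without smoke replicate 1) and 20 to 26 after room air against continued smoke, 0 to 3 and 1 to 5 against forced air, and 0 in each case between the cessation groups. Forced air against untreated mice gave 0 to 5, 2 to 4 and 0 to 5 at 2, 12 and 24 weeks. The change of the smoke effect gave 0 to 1 between 12 and 2 weeks (1 without smoke replicate 3 at 12 weeks) and 2 in each case between 24 and 2 weeks. The titles carry a number after the group letter that some groups share, and the labels do not say that it pairs mice. Arrays of the same number deviated together in every pair (r over 0.1, 3 or more pairs) only for forced air at 12 weeks against untreated mice. For smoke at 12 weeks 2 of 3 pairs were over 0.1 (r from -0.0491 to 0.496). For room air cessation against forced air 2 of 3 were (r from -0.129 to 0.203), and for smoke at 2 weeks 1 of 4 (r from -0.0483 to 0.259). Comparisons with fewer pairs could not meet this rule. Taken as a replicate block, the number after the group letter gave 18, 28 and 27 members at 2, 12 and 24 weeks. It gave 13 after forced air and 17 after room air against continued smoke, and 1 and 2 against forced air. This block was added after the data had been seen. Forced air against untreated mice gave 0, 2 and 2, and the changes of the smoke effect kept their counts. Plk1, Ndc80, Melk and Foxm1 lay under the detection filter, and Cenpe and Ccne1 were near the detection limit in several groups.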
